A study of Homo sapiens with 18 samples.

Results

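The transcripts described here encode the proteasome. Members were the genes whose platform symbol begins with PSMA to PSMG and a number, without antisense and divergent noncoding transcripts, and each gene was read through its brightest probe set. The rule gave 44 of the 19775 genes that had a probe set with 1 symbol, and 41 of the 44 passed the filter on low signals, a mean level at or above the median of all probe sets (a signal of 19.62). By their known roles the members were 13 subunits of the 20S core (6 alpha and 7 constitutive beta), 14 of the 19S cap (5 ATPases and 9 others) and 3 of the immunoproteasome (PSMB8, PSMB9 and PSMB10). The others were 4 chaperones of 20S assembly, 3 chaperones of 19S assembly, 3 activators, the inhibitor PSMF1 and the germ-cell alpha subunit PSMA8. A further pair, PSMC3IP and PSME3IP1, carries such symbols only through interaction partners and does not encode proteasome subunits. The core and cap were not complete here. The alpha subunit PSMA6 and the activator PSME2 were left out because their probe sets carry several symbols, and the cap subunits PSMC5, PSMD7 and PSMD13 were not among the members.

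The cells were Caco-2, an established human line from a colon carcinoma that is widely used as a model of intestinal epithelium. Control cells were kept in standard DMEM and depleted cells in DMEM without riboflavin (vitamin B2, from which cells make the redox cofactors FMN and FAD), both with calf serum, which the protocol says was dialysed for some of the work without naming the samples. Total RNA was taken at 24, 48 and 72 h, so that 18 Affymetrix arrays fell into 6 groups of 3. The sample numbers in the titles run through all 6 groups once in each of 3 sets, and depleted cells were compared with control cells of the same set. No label says that the sets were separate cultures, so p-values measure the spread between these samples, which may be technical.

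The proteasome is the barrel-shaped protease that degrades most short-lived and damaged proteins of the cell after they have been tagged with ubiquitin. Its 20S core is built of rings of alpha subunits, which gate the entrance, and rings of beta subunits, of which PSMB5, PSMB6 and PSMB7 carry the catalytic sites. The 19S cap recognises ubiquitin chains, removes them and feeds the unfolded substrate into the core through a ring of ATPases. In cells exposed to interferon the catalytic subunits are replaced by PSMB8, PSMB9 and PSMB10, which changes the peptides that are made for MHC class I presentation. The subunit genes are known to be transcribed together, and the factor NFE2L1 raises them through antioxidant response elements when proteasome activity falls.

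The upstream sequences of 4 subunit genes are shown because their transcripts behaved in contrasting ways; they were chosen after their values were seen. PSMB3 and PSMA4 were lower in depleted cells of every set at every time, while PSMD11 and PSMD12 were lower at 24 and 48 h and higher at 72 h in their brightest probe sets. The other probe set of each above the filter was lower in depleted cells of every set at 72 h, so that contrast holds for the brightest probe sets only. Each run is the 180 bases that end just before the annotated transcription start, 5′ to 3′, from RefSeq on GRCh38.p14. Capitals mark the antioxidant response element core TGACNNNGC and the CCAAT box, searched on both strands.
PSMB3 (chr17:38752561-38752740, plus strand): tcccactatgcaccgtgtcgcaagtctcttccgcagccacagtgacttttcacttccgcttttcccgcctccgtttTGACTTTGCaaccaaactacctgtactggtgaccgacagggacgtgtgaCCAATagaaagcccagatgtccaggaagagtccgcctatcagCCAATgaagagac
PSMA4 (chr15:78540225-78540404, plus strand): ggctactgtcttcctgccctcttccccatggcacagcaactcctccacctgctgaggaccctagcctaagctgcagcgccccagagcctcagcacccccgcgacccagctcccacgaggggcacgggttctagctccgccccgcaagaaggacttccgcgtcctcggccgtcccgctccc
PSMD11 (chr17:32444330-32444509, plus strand): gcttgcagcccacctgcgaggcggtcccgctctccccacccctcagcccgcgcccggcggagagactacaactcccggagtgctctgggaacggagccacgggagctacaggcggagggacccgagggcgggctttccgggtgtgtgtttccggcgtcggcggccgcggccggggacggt
PSMD12 (chr17:67366578-67366757, minus strand): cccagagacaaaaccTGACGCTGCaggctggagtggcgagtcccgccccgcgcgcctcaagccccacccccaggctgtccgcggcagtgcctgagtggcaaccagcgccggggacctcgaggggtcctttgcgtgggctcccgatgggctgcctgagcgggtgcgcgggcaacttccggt
Within these bases the antioxidant core was present in PSMB3 and PSMD12 and not in PSMA4 or PSMD11, so each pair holds 1 gene with a match. Promoters of 38 of the 44 members were matched by symbol. Within the 250 bases before the start, the antioxidant core was found in 10 of the 38 (26.3%), in 3 of the 22 matched core and cap genes (13.6%) and in 11.0% of 27305 promoters. The CCAAT box was found in 11 of the 22 against 33.0% of all promoters. The ETS core CCGGAAG was found in 5 of the 22 (22.7%) against 8.8% of all promoters. The palindrome of the factor NRF1 matched in 2 of 22 (9.1%) against 7.6%. The core of the interferon-stimulated response element matched in 2 of 22 (9.1%) against 3.1%, and the gamma-activated site TTCNNNGAA in 3 of 22 (13.6%) against 6.8%. These are matches of letters only.

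The values were deposited MAS5 signals, a linear brightness that the authors scaled to nearly the same trimmed mean on every array (99.462 to 99.74). A level below is log2(signal + 16), and a difference is depleted minus control on that scale, which understates changes of low signals. Brightness of different probe sets was not compared. All 8 epithelial markers were above the filter, and their summed signal overlapped between groups at every time (19728.6 to 33644.7 over the 18 arrays). The leukocyte marker PTPRC was below it, with 4 of 5 leukocyte and 5 of 6 fibroblast markers above it in their mean. Signals of CD3E (2.0 to 55.0), ITGAM (5.4 to 54.2), DCN (8.8 to 38.6) and THY1 (3.6 to 68.2) lay on both sides of it. Those of CD14, LYZ, COL1A1, COL3A1 and LUM stayed above it. Passing the filter does not show that leukocytes or fibroblasts were present. Of the fibroblast markers, COL1A1 was called lower in the average (-0.61) and at 72 h (-1.05) and LUM higher in the average (0.35), neither of which passed without the block; their summed signal was 448.3 to 764.1 on control and 402.8 to 642.5 on depleted arrays. Their part in the subunit values was not tested. The maximum signal was 27380.2 to 31409.8 on the arrays of set 2 and 6904.8 to 8574.5 on the others, while no member exceeded 4815.1. Precision is limited by having 3 arrays in a group. In bulk RNA, fewer cells with a transcript and less of it per cell cannot be told apart.

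Averaged over the 3 times, core and cap transcripts were lower in depleted cells. All 27 tested subunits of the 20S core and the 19S cap had a difference below 0, from -0.48 to -0.07 with a median of -0.20, and 8 of them passed the test. The falls reached both parts of the particle, with 4 of 13 core genes (PSMA2, PSMA4, PSMB3 and PSMB7) and 4 of 14 cap genes (PSMC3, PSMD2, PSMD6 and PSMD12). Over the whole list, 10 of 41 tested members (24.4%) fell and 0 rose, the further falls being the immunoproteasome subunit PSMB10 and the assembly chaperone PSMG1. Among all 12319 genes tested, 8.81% were called lower and 8.4% higher in this contrast. The median difference of all those genes was 0.0017, and that of the 3564 genes within the level range of the core and cap (8.315 to 11.672) was -0.05, of which 57.2% lay below 0.

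The test was limma across 27307 probe sets with the set as a block and Benjamini-Hochberg adjustment at 0.05. Without the block none of the 10 passed, with adjusted p from 0.0531 to 0.651, and 2.16% of all genes were called lower and 2.48% higher. Without the 6 arrays of set 1, or without those of set 3, 0 members passed, and 8 passed without set 2. Of the 10, PSMA4, PSMB3, PSMB7, PSMC3, PSMD2 and PSMG1 passed without set 2, and PSMA2, PSMB10, PSMD6 and PSMD12 did not. The 8 therefore include members not called with all arrays. Far fewer of all probe sets were called lower without set 1 or set 3 too (counts in the last section), so that drop was not particular to the members. No count over all probe sets is given for the fit without set 2. Of the fits that left out 1 array, those without the control array of set 1 at 72 h and without the depleted array of set 3 at 24 h kept the fewest calls, 6 each.

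Pair by pair, 8 of the 27 core and cap genes (29.6%) were lower in depleted cells in all 9 pairs, against 4.98% of all genes and 11.4% of the genes in the same level range. Over the 6 pairs of 24 and 48 h, 16 of the 27 (59.3%) were lower each time, against 8.37% and 18.0%. None of the 27 was higher in all 9 pairs. Taken by set, the median over the 27 was -0.35, -0.36 and -0.39 at 24 h in sets 1, 2 and 3, with 27, 24 and 25 of 27 genes below 0. At 48 h it was -0.24, -0.56 and -0.24. At 72 h it was -0.12, -0.09 and 0.06, with 19, 18 and 12 of 27 below 0. The 48 h value of set 2 stood apart, and in that pair the median of all genes in the same level range was also low, at -0.20, against -0.09 and -0.04 in the other sets.

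**Figure D1:**
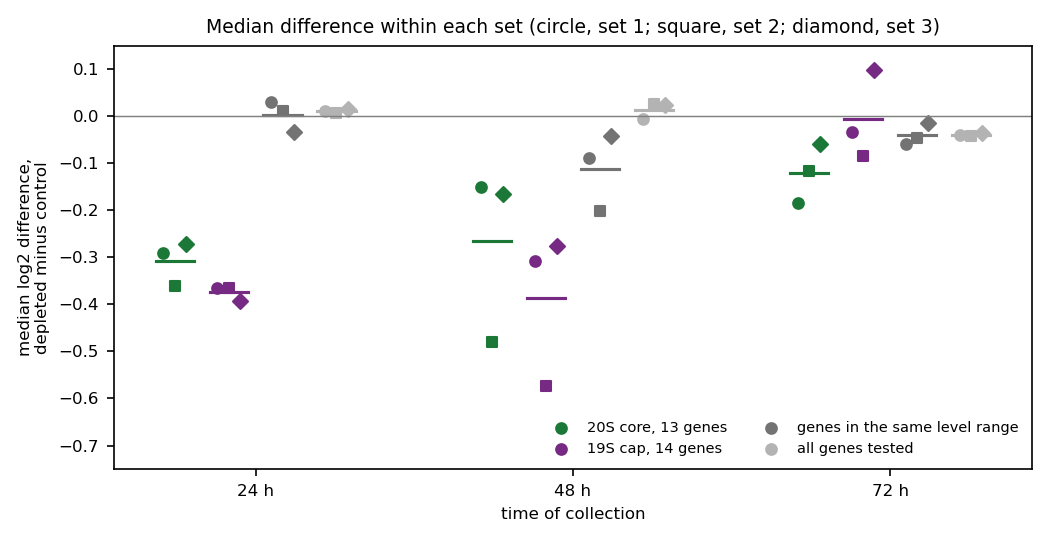
Median log2 difference (depleted minus control, vertical axis) of the 20S core, the 19S cap, the genes in the same level range and all genes tested, at 24, 48 and 72 h. Each symbol is 1 set and each bar the mean of the 3 sets; core and cap lie below the other genes at 24 and 48 h in every set, and the mean over sets is nearer to 0 at 72 h, although the core of set 1 had -0.18 there against -0.15 at 48 h.

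Among the alpha subunits, PSMA4 and PSMA2 fell in the averaged contrast. At 24 h the signal of PSMA4 was 2796, 1898 and 2133 in control cells of sets 1, 2 and 3 and 2024, 1272 and 1547 in depleted cells. It was 2696, 2146 and 2404 against 2327, 1310 and 1778 at 48 h, in the same order, and 2326, 1426 and 1712 against 1729, 1024 and 1457 at 72 h. The groups overlapped at each time because the sets differed from each other, but the depleted array was the lower one in every set. The averaged difference was -0.44 (SE 0.07, a fold of 0.74, adjusted p = 0.00157 by limma), with -0.50, -0.45 and -0.38 at 24, 48 and 72 h, none of which passed alone (adjusted p = 0.0577, 0.122 and 0.0683 by limma). PSMA2 read 2996, 2483 and 2365 against 2158, 1928 and 1718 at 24 h, 2910.1, 2694 and 2507 against 2549, 1731 and 2117 at 48 h and 2453, 1904 and 2062 against 2238, 1748 and 1913 at 72 h, and its groups did not overlap at 24 h. Its averaged difference was -0.30 (SE 0.07, adjusted p = 0.0137 by limma), and a separate probe set of the same gene was also called lower (-0.44). The other alpha subunits did not pass, with averaged differences of -0.20 for PSMA7, -0.14 for PSMA1, -0.10 for PSMA5 and -0.07 for PSMA3. A separate probe set of PSMA7 was called lower (-0.27, adjusted p = 0.0386 by limma). The value of PSMA1 at 48 h (-0.38) came mostly from set 2, where its difference was -1.11 against -0.06 and 0.04 in sets 1 and 3.

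Of the constitutive beta subunits, PSMB3, a structural subunit without a catalytic site, and PSMB7, which carries the trypsin-like site, fell. PSMB3 read 2700.4, 2846 and 2102 in control cells of sets 1, 2 and 3 and 2118, 1612 and 1530.1 in depleted cells at 24 h. It read 2954, 2524 and 2251 against 2215, 1486 and 1797 at 48 h and 2271, 1935 and 1944 against 1802, 1329.5 and 1797 at 72 h, and the groups did not overlap at the later times. Its averaged difference was -0.45 (SE 0.09, adjusted p = 0.00506 by limma). PSMB7 read 1904, 1691 and 1542 against 1461, 1275 and 1109 at 24 h, 1864, 1692 and 1581 against 1568, 1138 and 1319 at 48 h and 1515, 1248 and 1396 against 1176, 981 and 1102 at 72 h. Every depleted array was below every control array at each of the 3 times for PSMB7, and the paired differences at 72 h were -0.36, -0.34 and -0.34. Its averaged difference was -0.37 (SE 0.07, a fold of 0.77, adjusted p = 0.00407 by limma). PSMB5, the chymotrypsin-like subunit, was lower in 9 of 9 pairs with an averaged difference of -0.20 that did not pass (adjusted p = 0.0857 by limma). PSMB6, the caspase-like subunit, was lower in 7 of 9 pairs, with -0.22. PSMB1, PSMB2 and PSMB4 had -0.18, -0.19 and -0.13 and did not pass, and another probe set of PSMB2 had 0.11.

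All 5 ATPases of the cap that were tested lay below 0 in the average, and PSMC3 (also called RPT5) fell. Its signal was 828, 594 and 734 in control cells of sets 1, 2 and 3 and 584, 339.9 and 553 in depleted cells at 24 h, with no overlap. At 48 h it was 916, 600.1 and 858 against 736, 476 and 666 and at 72 h 665, 412 and 669.8 against 480.4, 346 and 625, so that depleted cells were lower in all 9 pairs and the gap was smallest in set 3 at 72 h. On the log2 scale the 24 h difference was -0.56 (SE 0.14, adjusted p = 0.0484 by limma) and the averaged one -0.38 (SE 0.08, adjusted p = 0.00533 by limma). PSMC3 was the only member called at 24 h, in 1 direction, where 0.982% of all genes were called lower and 1.98% higher. There 15 members had an unadjusted p under 0.05, with no share of all genes to show whether that is particular to them. The 24 h call of PSMC3 sat at the adjusted threshold of 0.05. It was lost in 17 of 18 fits that left out 1 array, with adjusted p up to 0.172 by limma. The averaged call was lost in 0 of 18. PSMC1 and PSMC2 had averaged differences of -0.29 and -0.28 and did not pass. The 48 h value of PSMC1 (-0.47) was made up of -0.32, -1.10 and 0.01 in sets 1, 2 and 3. Both other probe sets of PSMC2 pointed the other way (0.25 and 0.19), so this gene has no settled direction. PSMC4 and PSMC6 had -0.20 and -0.23, and PSMC6 had the lowest 48 h p of the ATPases (-0.49, adjusted p = 0.159 by limma).

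Among the other cap subunits, PSMD2 (RPN1), a scaffold that docks ubiquitin shuttles, fell by the widest margin in the averaged contrast. It read 1022, 1523 and 903 in control cells of sets 1, 2 and 3 and 739, 1041 and 686 in depleted cells at 24 h. At 48 h it read 1172, 2001 and 1072 against 798, 801 and 774, where the depleted arrays were close together, all below the control arrays, and set 2 had the highest control value. At 72 h it read 832, 926 and 791 against 760.4, 722 and 730.2, and there too no depleted array reached the lowest control array. The averaged difference was -0.48 (SE 0.10, a fold of 0.72, adjusted p = 0.00795 by limma), with -0.46, -0.77 and -0.20 at the 3 times. PSMD6 read 1078, 1107 and 859 against 854, 823 and 601 at 24 h, 1127, 1209 and 927 against 932, 723 and 728 at 48 h and 874, 727 and 604 against 827, 726 and 712 at 72 h. It was thus lower in all pairs at 24 and 48 h, and close to control at 72 h in set 2 and above it in set 3. Its averaged difference was -0.27 (adjusted p = 0.0308 by limma), a call lost in 8 of 18 fits without 1 array (adjusted p up to 0.069). The mean with its other probe set, which read 0.2 to 13.8 and lay under the filter, gave 0.024. PSMD12, a scaffold of the lid, fell by 0.23 on average (adjusted p = 0.0397 by limma), a call lost in 16 of those 18 fits (adjusted p up to 0.0802). PSMD3, another scaffold of the lid, had the lowest 24 h difference of the 27 (-0.66), which did not pass, and its sets disagreed at 48 h (-0.38, 0.83 and -0.54). PSMD1, PSMD4, PSMD8, PSMD11 and PSMD14 had averaged differences between -0.13 and -0.10 and did not pass.

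**Figure D2:**
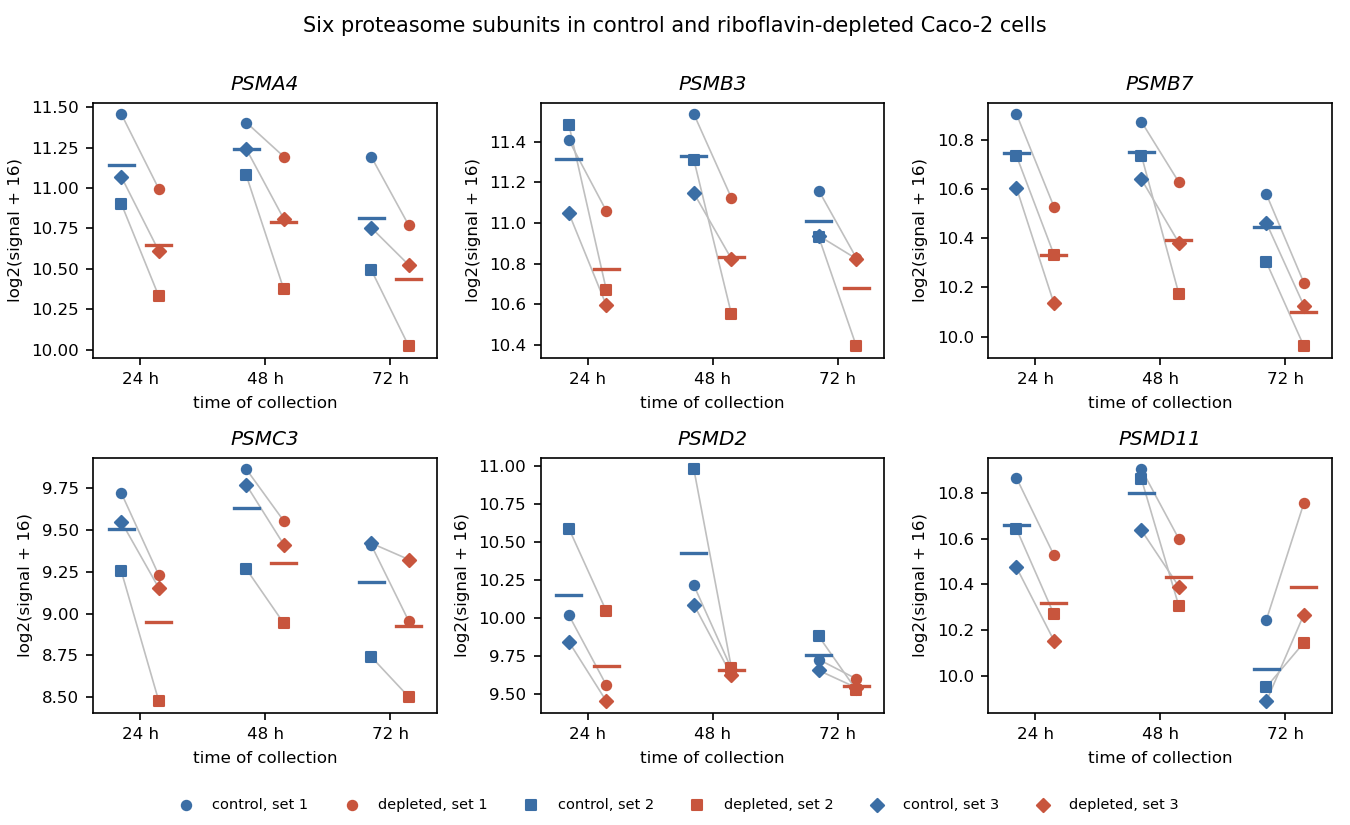
Level, log2(signal + 16), of PSMA4, PSMB3, PSMB7, PSMC3, PSMD2 and PSMD11 on each of the 18 arrays at 24, 48 and 72 h, with lines joining the control and depleted array of a set and bars at group means. Lines slope down in every set for PSMA4, PSMB3, PSMB7, PSMC3 and PSMD2, and up at 72 h for PSMD11.

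By time, the core and cap differences had similar medians at 24 and 48 h and lay closer to 0 at 72 h. At 24 h the median was -0.28 over the 13 core genes and -0.34 over the 14 cap genes. At 48 h they were -0.26 and -0.35, and at 72 h -0.10 and 0.04; the 72 h cap median was -0.03 without the depleted array of set 3 and -0.04 without that whole set. All 27 lay below 0 at 24 h and at 48 h, and 15 of 27 at 72 h, where all 7 constitutive beta subunits remained below 0 and 4 of 6 alpha and 8 of 14 cap subunits were above it. Of all genes tested, 48.9%, 46.6% and 54.0% lay below 0 at the 3 times, and of the genes in the same level range 49.2%, 65.4% and 55.2%. At 48 h limma called 0 members, where 0.244% of all genes were called lower and 0.568% higher. It gave 13 members an unadjusted p under 0.05, with no share of all genes to show whether that is particular to them. At 72 h it called 2, neither a core nor a cap gene, where 8.65% of all genes were called lower and 6.21% higher (2.47% and 1.92% without the block, with 0 members called).

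**Figure D3:**
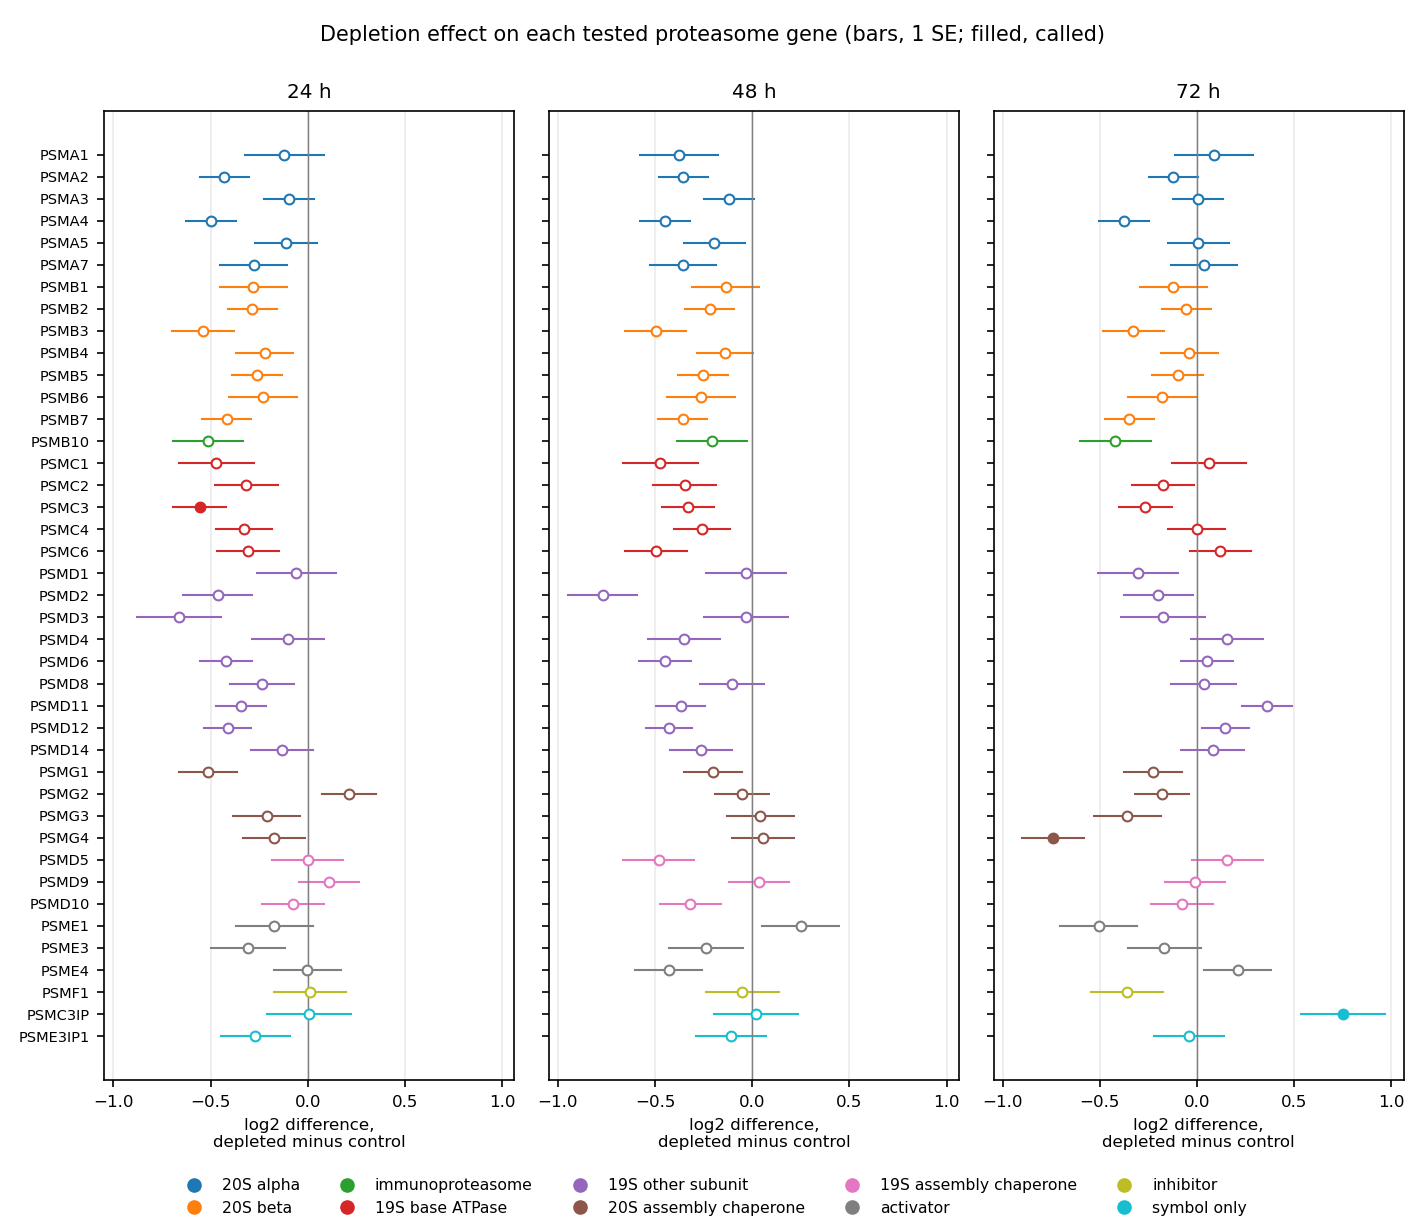
Log2 difference, depleted minus control (horizontal axis), of each of the 41 tested members at 24, 48 and 72 h, coloured by class, with bars of 1 SE from the blocked fit and filled symbols for calls. Core and cap genes lie to the left of 0 at 24 and 48 h and on both sides at 72 h; PSMC3 at 24 h and PSMG4 and PSMC3IP at 72 h are the calls.

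Both cultures changed over time. In control cells the median over the 27 genes from 24 to 72 h was -0.30, -0.46 and -0.24 in sets 1, 2 and 3, with 25, 23 and 23 of 27 below 0. Most of that lay between 48 and 72 h (-0.35, -0.50 and -0.41), while from 24 to 48 h the medians were 0.04, 0.12 and 0.18. In depleted cells the median from 24 to 72 h was -0.10, -0.18 and 0.11. The genes in the same level range had medians from -0.07 to 0.01 in control cells over that interval. From 48 to 72 h the median over the 27 was below 0 in depleted cells as well (-0.23, -0.15 and -0.12, with 24, 17 and 23 of 27 genes below 0), and from 24 to 48 h it was 0.12, -0.15 and 0.25. At 72 h, then, depleted cells were set against control cells whose own subunit levels were lower than at 24 h. In control cells limma called PSMD11 (-0.63) and PSMD12 (-0.55) lower at 72 h than at 24 h and 0 members higher, where 0.576% of all genes were called lower and 0.998% higher. Those calls were lost in 10 and 17 of 18 fits without 1 array. In depleted cells 1 member, PSMG4, was called lower by its brightest probe set, where 7.12% of all genes were called lower and 3.87% higher. Of the other probe sets above the filter, 1 of PSMC2 and those of PSMD11 and PSMD12 were called lower too (-0.54, -0.67 and -0.99). The remaining one of PSMC2 read 113.4, 117.8 and 168.5 in depleted cells of sets 1, 2 and 3 at 24 h. At 72 h it read 83, 78.8 and 89.1. The comparisons of 72 h with 24 h in control and in depleted cells share arrays with the depletion contrasts at 24 and 72 h.

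**Figure D4:**
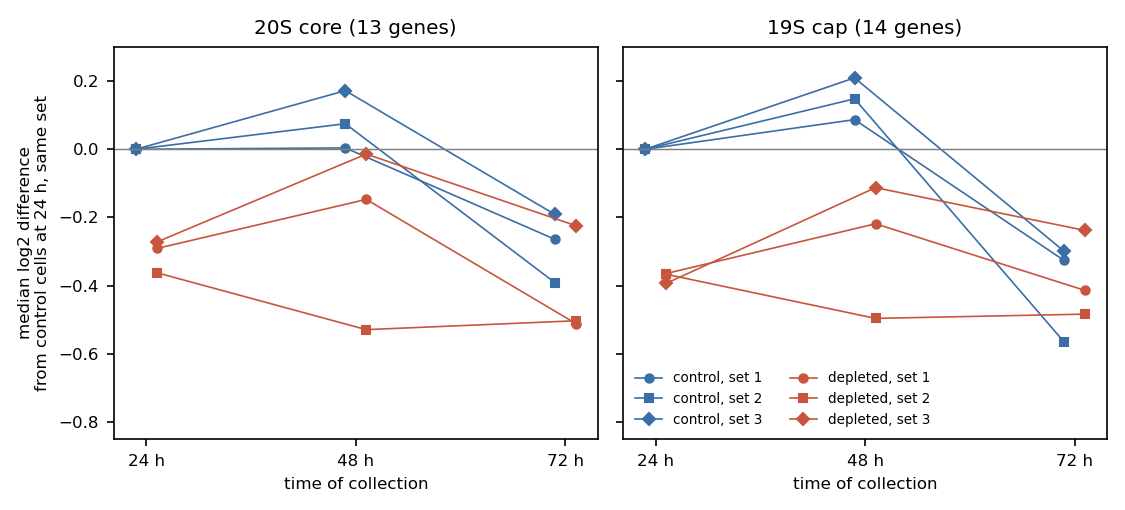
Median log2 difference of the 13 core genes (left) and 14 cap genes (right) from control cells at 24 h of the same set, at 24, 48 and 72 h, in control and depleted cells, with 1 line for each set. Between 48 and 72 h the core lines drop in control cells of every set (to -0.26, -0.39 and -0.19) and in depleted cells of sets 1 and 3 (to -0.51 and -0.22), while the depleted line of set 2 goes from -0.53 to -0.50.

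The change of the depletion effect was tested directly. From 24 to 72 h it was above 0 in 26 of 27 core and cap genes, with medians of 0.16 in the core and 0.31 in the cap. A single member passed, PSMD11, where 1.83% of all genes were called higher and 3.47% lower. PSMD11 (RPN6), which clamps the lid to the core, read 1849, 1582 and 1406 against 1459.8, 1218 and 1123 at 24 h (control against depleted, sets 1 to 3). It read 1899, 1842 and 1575 against 1534, 1248 and 1326 at 48 h and 1198, 974 and 932 against 1712, 1116 and 1217 at 72 h. Depleted cells were thus lower in every set at 24 and 48 h and higher in every set at 72 h, and control cells had their lowest values at 72 h. The change was 0.70 (SE 0.18, adjusted p = 0.0416 by limma), lost in 15 of 18 fits without 1 array and without the block. The gene's other probe set above the filter gave -0.40 for the same change and -0.43 at 72 h, so the result rests on 1 probe set. PSMD12 had 0.56 for the same change and did not pass, and its other probe set above the filter gave -0.59. That probe set was called lower at 72 h (-0.68, adjusted p = 0.0072 by limma, a call lost without the block), where the one used had 0.15, so PSMD12 has no settled direction at 72 h. The probe set used read 1478, 988 and 1246 against 1148, 716 and 927 at 24 h, 1731, 1023 and 1287 against 1236, 673 and 1108 at 48 h and 1057, 651 and 825 against 1109, 709 and 984 at 72 h. From 24 to 48 h 0 members were called and 0 had an unadjusted p under 0.05, with 0.0% of all genes called. From 48 to 72 h 0 were called, where 1.43% of all genes were called lower and 1.18% higher. An unadjusted p under 0.05 was found for 10 members, with no share of all genes to show whether that is particular to them.

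The immunoproteasome subunits were weakly read in these cells. PSMB10, the inducible partner of PSMB7, was the only one above the filter. It read 108, 114 and 129.9 against 80.8, 73.4 and 77.4 at 24 h, 84.3, 107 and 149 against 83.2, 78.9 and 124 at 48 h and 121, 90.7 and 105 against 72.6, 84.6 and 67.1 at 72 h, lower in depleted cells in 9 of 9 pairs and without overlap at 24 and 72 h. Its averaged difference was -0.38 (SE 0.11, adjusted p = 0.0272 by limma), beside -0.37 for PSMB7, and the call was lost in 6 of 18 fits without 1 array (adjusted p up to 0.0611). PSMB9, the partner of PSMB6, had signals from 1.4 to 26.4, under the filter of 19.62 in its mean, and was higher in depleted cells in 9 of 9 pairs. Its signals were 7.9, 7.9 and 2.1 against 14.7, 24.5 and 21.6 at 24 h, 5.2, 1.4 and 3.6 against 10.4, 19.9 and 13.9 at 48 h and 3.1, 4.4 and 16.4 against 5.2, 11.8 and 26.4 at 72 h. In a fit with no filter its averaged difference was 0.57 (adjusted p = 0.0355 by limma). At such signals background makes up an unknown share, and the value is given as a description. PSMB8, the partner of PSMB5, had signals from 1.0 to 21.7 and an unfiltered difference of 0.18 (adjusted p = 0.539 by limma), and the germ-cell subunit PSMA8 had signals from 0.4 to 21.3. The 5 leukocyte markers, whose cells carry the immunoproteasome, summed to 342.3 to 396.5 on control arrays and 298.0 to 370.6 on depleted arrays at 24 h, and to 275.2 to 368.4 and 301.7 to 455.1 at 48 h. At 72 h the sums were 209.7 to 279.0 and 317.4 to 386.3. PTPRC was under the filter, and CD3E and ITGAM had signals on both sides of it. These sums therefore do not show that leukocytes were present. LYZ was the only leukocyte marker called at 72 h (0.76, adjusted p = 0.00838 by limma, a call lost without the block), where CD14, CD3E and ITGAM had 0.09, -0.07 and 0.09. Their part in these values was not tested.

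Around antigen presentation, 1 of 14 tested genes rose in the averaged contrast and 0 fell, where 8.4% of all genes were called higher and 8.81% lower. That gene was HLA-E, a nonclassical class I molecule (0.30, adjusted p = 0.019 by limma; not called without the block). The peptide-loading chaperones CALR, PDIA3 and CANX had -0.40, -0.30 and -0.19 and did not pass. The median of the list was 0.06.

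The chaperones and regulators of the particle were mixed. PSMG1 and PSMG2 form a pair that starts the alpha ring, and PSMG3 and PSMG4 form a second pair. PSMG1 read 1686, 674 and 1681 against 952, 542 and 1255 at 24 h, 1334, 629.7 and 1886 against 1141, 599 and 1514 at 48 h and 1102, 514 and 1471 against 846, 556 and 1099 at 72 h, lower in 8 of 9 pairs. Its averaged difference was -0.31 (adjusted p = 0.0266 by limma), lost in 9 of 18 fits without 1 array (adjusted p up to 0.0603), while PSMG2 had -0.01. PSMG4 had the lowest called difference at any single time: its signals at 72 h were 378, 193 and 392 in control cells of sets 1, 2 and 3 and 173, 132 and 241 in depleted cells. At 24 h they were 484, 214 and 357 against 353, 205 and 351 and at 48 h 368, 179 and 364 against 368, 183 and 401, and set 2 was the lowest in every group, so that the groups overlapped at each time. The 72 h difference was -0.74 (SE 0.16, adjusted p = 0.0076 by limma) and depleted cells at 72 h were also below those at 24 h (-0.69, adjusted p = 0.0155 by limma). Of its other probe sets 1 was above the filter, with signals of 13.5 to 58.7, and gave 0.48 for the 72 h difference, so the direction rests on 1 probe set. PSMG3 had -0.36 at 72 h and did not pass.

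The 3 chaperones that assemble the ATPase ring (PSMD5, PSMD9 and PSMD10) did not pass, with averaged differences of -0.11, 0.05 and -0.16. The difference of PSMD5 at 48 h (-0.48) was -1.02 in set 2 and -0.22 and -0.20 in sets 1 and 3. Of the activators, PSME1 (PA28 alpha) had -0.51 at 72 h without overlap between the groups (adjusted p = 0.112 by limma) and 0.25 at 48 h, PSME3 (PA28 gamma, nuclear) had -0.24 on average, and PSME4 (PA200) -0.07. A separate probe set of PSME3 was called lower (-0.35, adjusted p = 0.0338 by limma). The inhibitor PSMF1 (PI31) had -0.13, with 1 other probe set called lower (-0.28) and another at 0.05. Outside the particle, PSMC3IP, a meiotic recombination cofactor, was called higher in depleted cells at 72 h, where it read 50.2, 119.8 and 106 against 124, 232 and 135. Its difference was 0.75 (adjusted p = 0.0347 by limma). That call was lost in 5 of 18 fits without 1 array (adjusted p up to 0.172) and kept in 0 of 3 without a set. At 24 h it read 111, 170.2 and 126 against 149, 183 and 87.8, so control values were lower at 72 h than at 24 h in every set. The other probe set of PSMC3IP above the filter read 81.1, 120.4 and 78.8 against 110.3, 157.9 and 102 at 72 h. In the averaged contrast, 20 member genes had 32 further probe sets above the filter, and 23 had the sign of the one used. Of the 32, 4 were called lower and 0 higher. Of all 27307 probe sets tested, 6.46% were called lower and 8.55% higher.

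Factors that work with the proteasome did not share 1 direction. Of 14 tested, 2 fell and 2 rose in the averaged contrast (8.81% and 8.4% of all genes), and without the block 0 were called either way. POMP, the chaperone that matures the core, read 2892, 3485 and 2304 against 2277, 2256 and 1773 at 24 h, 2924, 3425 and 2705 against 2749.7, 2442 and 2302 at 48 h and 2133, 1951 and 1945 against 1918, 1813 and 1805 at 72 h, lower in all 9 pairs (-0.28, adjusted p = 0.0334 by limma, lost in 11 of 18 fits without 1 array), though a probe set without cross-match suffix gave 0.05. SEM1, a small lid subunit whose symbol lies outside the naming rule, fell by 0.41 on average (adjusted p = 0.0258 by limma, lost in 6 of 18 such fits). ZFAND5, which binds the particle and stimulates it, rose, chiefly at 72 h, where it read 268, 369 and 291 against 610.3, 739 and 595 (1.04, adjusted p = 0.000623 by limma). ZFAND2A, an arsenite-inducible relative, rose by 0.39 on average (adjusted p = 0.0412 by limma, lost in 13 of 18). UBE3C, a ligase on the particle, fell by 0.74 at 72 h (adjusted p = 0.00876 by limma), but the mean of its probe sets gave 0.21. The ubiquitin and E1 list had 0 of 3 called in the averaged contrast, with -0.15 for UBB, -0.23 for UBA1 and -0.05 for UBA6, and 0 at an unadjusted p under 0.05 at any of the 3 times.

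NFE2L1 itself, which activates subunit genes, was higher in depleted cells at each time, while the core and cap subunits were lower at 24 and 48 h. It read 1180.3, 801 and 953 against 1346, 1160.3 and 1282 at 24 h, 999, 882 and 1049.7 against 1150.3, 1225 and 1296 at 48 h and 1209, 1271 and 1147 against 1624, 1722 and 1692 at 72 h, higher in all 9 pairs. The averaged difference was 0.39 (SE 0.08, adjusted p = 0.0068 by limma, and 0.0419 without the block). The 72 h difference of NFE2L1 was 0.47, a call lost in 14 of 18 fits without 1 array. At that time the median over the 27 core and cap genes was -0.04, as was that of all genes, with 15 of 27 below 0. In its list of processing and regulation genes, 4 of 10 tested rose in the average and 0 fell, where 8.4% of all genes were called higher; NFE2L1 and MAFG passed without the block and NFE2L2 and MAFF did not. The 4 were NFE2L1, the related NFE2L2 (0.34), and MAFF and MAFG, small MAF proteins that pair with both. In sets 1, 2 and 3 the paired differences of NFE2L2 were 0.535, -0.158 and -0.107 at 24 h. They were 0.019, 0.048 and 0.149 at 48 h and 1.01, 0.8 and 0.788 at 72 h, so its averaged rise came mostly from 72 h. MAFF read 478, 534 and 474 against 650, 486 and 339 at 24 h and 835, 711 and 318 against 904.5, 372 and 510 at 48 h, and the sets disagreed at both times. At 72 h it read 369, 161 and 216 against 1729, 815 and 1227, where every set was higher (2.28, adjusted p = 0.00035 by limma). MAFG read 124, 156 and 186.5 against 131, 212 and 239 at 24 h. It read 83.4, 55.3 and 126 against 222, 378 and 383 at 72 h (1.74, adjusted p = 0.000461 by limma). Control values of both genes were lower at 72 h than at 24 h in every set. VCP, the p97 ATPase that releases NFE2L1 from the endoplasmic reticulum, had -0.25 and NGLY1, which deglycosylates it, -0.16; neither passed. Of 9 tested shuttles and p97 cofactors, 1 rose and 1 fell in the averaged contrast (8.4% and 8.81% of all genes), and 0 were called without the block. SQSTM1 (p62), which carries ubiquitinated cargo to autophagy, rose on average (0.52, adjusted p = 0.00516 by limma) and at 72 h read 730.4, 1022 and 945 against 1665, 1706 and 1976 (0.98). UFD1, a p97 adaptor, fell by 0.31 on average (adjusted p = 0.0257 by limma, lost in 4 of 18 fits without 1 array).

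**Figure D5:**
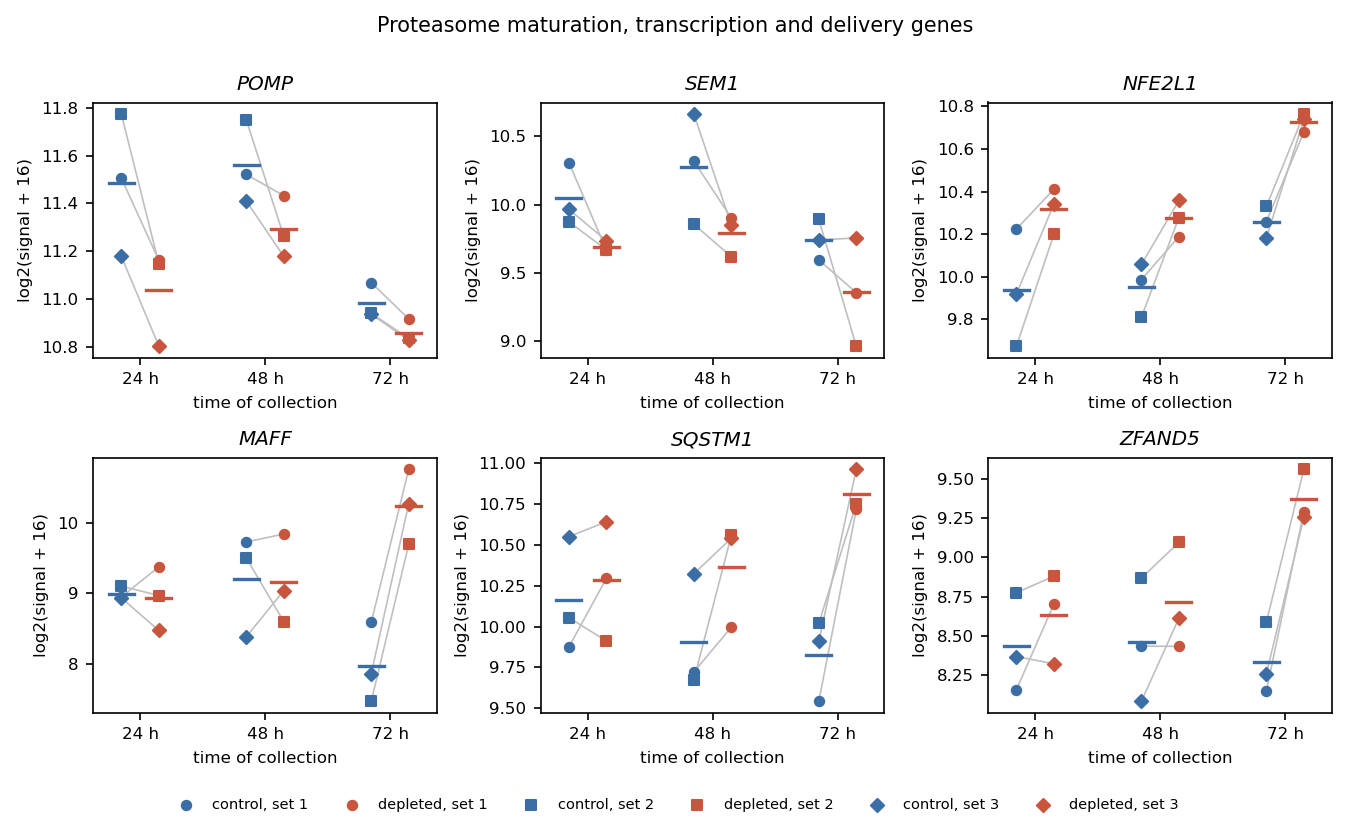
Level, log2(signal + 16), of POMP, SEM1, NFE2L1, MAFF, SQSTM1 and ZFAND5 on each of the 18 arrays at 24, 48 and 72 h, drawn with set lines and group-mean bars. NFE2L1 lines rise in every set at each time, and MAFF, SQSTM1 and ZFAND5 separate at 72 h, while POMP lines fall.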

How the data were processed

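The deposited values were MAS5 signals, a linear intensity per probe set that the authors scaled (2% trimmed means of 99.462 to 99.74 on the 18 arrays); MAS5 is named, with no version, in the submitters' processing notes. Detection calls and raw intensities were not used here. Of 54675 probe sets, control probe sets and those with a mean log2(signal + 16) under the median of 5.1546 (a signal of 19.62) were left out, which left 27307. Symbols came from the platform annotation, and 5 probe sets of PSM genes with several symbols were not used as members. For each gene the probe set with the highest mean over all arrays was used.

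All arrays were fitted in limma 3.58.1 (R 4.3.3) with 6 group means and the set as a block, and p-values were adjusted by Benjamini-Hochberg over all 27307 probe sets, with a threshold of 0.05. Residual degrees of freedom were 10 and prior degrees of freedom 3.62. The pairing comes from the sample numbers in the titles. After removal of group means, arrays correlated at 0.302 to 0.602 within a set and at -0.754 to 0.163 between sets. That removal by itself pushes arrays of 1 group in different sets towards negative correlation, so the values between sets are partly fixed in advance. Correlation within a set cannot tell a shared culture from shared processing. The fit without the block, other pseudocounts (1 and 64), filters, scalings, probe-set choices and variance priors, and fits without 1 array or 1 set were the alternatives. Plots used matplotlib 3.10.9 under Python 3.11.15.

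The members and lists were chosen with earlier results of these data known. Members named were, in each class, up to 3 with the smallest p in the averaged contrast and 1 at each time, with the immunoproteasome subunits, their partners and PSMC3IP, and of each other list up to 4 genes with the smallest p; values on each array are given for called genes and for those a result turns on, and fitted or paired differences for the others.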

Additional observations from a re-analysis of the deposited data

Results flagged for a closer look

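The change of the depletion effect between times was tested for each member and list gene, and the probe sets used for these genes passed. The effect on PSMD11 changed by 0.70 (log2) from 24 to 72 h, while its other probe set above the filter gave -0.40. That on MAFF changed by 2.33 from 24 to 72 h and by 2.32 from 48 to 72 h, and that on MAFG by 1.47 and 1.46. The effect on ZFAND5 changed by 0.83 from 24 to 72 h. The effect on BTRC, an F-box protein that marks NFE2L1 among other targets, changed by -0.79 from 48 to 72 h. None of the 7 changes passed without the set as a block. Of 18 fits that each left out 1 array, the call was lost in 15 for PSMD11, 12 for ZFAND5, 11 for BTRC, 0 for MAFF over either interval, and 4 (from 24 h) and 14 (from 48 h) for MAFG.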

How the results depend on the processing

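Each number of called members below follows the counts in the report, and the cause of a difference was not tested. Each setting acts on all probe sets, and the share of all genes called is not given beside these counts. They therefore show how the calls move with the setting, not a result particular to the members. Without the replicate block 0 members were called in any contrast. With pseudocount 64 the numbers were 6 at 24 h, 1 at 48 h, 4 at 72 h, 2 for the change from 24 to 72 h and 1 for that from 48 to 72 h; with pseudocount 1, 0 at 24 h. With the filter at the 75th percentile they were 9, 3 and 5 at the 3 times, 2 and 3 for those changes and 15 averaged. With trended, robust prior variances they were 8, 6 and 5, 16 averaged, 2 and 3 for the changes and 4 in control cells over time. With no filter they were 0 at 24 h, 1 at 72 h, 6 averaged, and 0 for the change from 24 to 72 h and in either cell group over time. The 6 include PSMB9, which was called higher and lies under the filter of the main fit. With arrays centred on the 75th percentile they were 0 at 24 h, 0 and 1 for the changes and 1 in control cells. With the mean of all probe sets of a gene, which takes in dim ones, they were 2 at 24 h, 1 at 48 h, 0 for the change from 24 to 72 h, 1 in control and 2 in depleted cells. With plain probe sets (no suffix letter) they were 0 at 24 h, at 72 h, for the change from 24 to 72 h and in both cell groups.

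Class medians at 24 h kept their sign: the core had -0.21 under quantile normalization and -0.34 with plain probe sets, and the cap -0.37 centred, -0.30 under quantile normalization, -0.27 with the mean of probe sets and -0.31 with plain ones. Signs turned with the mean of probe sets for PSMG4 at 72 h (0.011), UBE3C at 72 h (0.21) and the averaged values of PSMB2 (0.016), PSMC2 (0.053), PSMD5 (0.042), PSMD6 (0.024), PSMD9 (-0.15), PSME4 (0.035) and PSMG4 (0.0155). With plain probe sets they turned for PSMG4 at 72 h (0.48), the change of PSMD11 (-0.40) and the averaged values of PSMC2 (0.25), PSMF1 (0.046), PSMG4 (0.33) and POMP (0.048). Quantile normalization turned PSMA3 (0.029) and PSMG2 (0.063), and centring PSMD9 (-0.0025).

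Without 1 array or 1 set, calls ranged from 0 to 1 at 24 h, 0 to 2 at 72 h, 0 to 10 averaged, 0 to 1 for both later changes, 0 to 2 for control cells over time and 0 to 1 for depleted ones, and all genes called dropped too without set 1 or 3 (235 and 221 probe sets lower, against 1763). The 24 h medians ranged from -0.33 to -0.20 in the core and from -0.41 to -0.33 in the cap, the 72 h core median from -0.14 to -0.0296, and the 72 h cap median from -0.04 to 0.08. The averaged value of PSMA1 ranged from -0.24 to 0.0145, that of PSMD9 from -0.0022 to 0.082 and that of PSMG2 from -0.062 to 0.032. Signals near 20 have the least room above background, which touches PSMB8, PSMB9 and PSMA8.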
